A study of Mus musculus with 2 samples.

Results

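The interferon-high repopulating cells described here are 55 cell barcodes of 1 single-cell RNA library, prepared from mouse brain 5 days after a microglia-depleting drug was withdrawn. They were chosen by measured values, being the 10% of the 553 retained barcodes of that library with the highest summed share of transcripts from 8 interferon-induced genes, namely Ifit1, Ifit2, Ifit3, Ifit3b, Isg15, Rsad2, Irf7 and Oasl2. The remaining 498 barcodes of the same library served as the comparison. Barcodes were retained if they had at least 500 genes and under 10% of unique molecular identifiers (UMIs, the counted transcripts) from the mitochondrial genome, which left out 32 of 585. The whole series holds 1194 barcodes in 2 libraries.

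The library named Repop D5 came from 6 adult C57BL/6J mice, pooled, that received PLX5622, an inhibitor of the microglial survival receptor Csf1r, during 14 days, followed by 5 days of control diet. The other library, CD, came from 4 pooled adult mice of the same strain on control diet for 19 days and holds 609 barcodes. Cells carrying both CD11b and CD45 were sorted for 10x Genomics libraries from papain-digested brain (an enzyme step at body temperature), after Percoll clearance of myelin and with a dye against dead cells. This gate admits other myeloid cells besides microglia. Each group is 1 library of pooled animals with no replicate, so no difference has a replicate check, and intervals below cover counting error only.

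Type I interferons bind a receptor made of Ifnar1 and Ifnar2, whose kinases Jak1 and Tyk2 activate transcription factors, among them Stat2. Together with Irf9 this forms a complex that binds the interferon-stimulated response element, a motif built on repeated GAAA, in the promoters of antiviral genes. The products degrade viral RNA, block translation and viral entry, present antigen, and in the case of Usp18 and Socs3 damp the receptor. Microglia express the receptor and the signalling chain at rest, and small groups of microglia with high levels of such genes are known from injured, ageing and developing brain.

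The promoters of 5 of the 8 chosen genes and of 1 gene outside the choice are shown because they hold that motif. Each is the 200 bases before the RefSeq start site in GRCm38.p6, written 5′ to 3′ on the gene's strand, with capitals marking GAAANNGAAA or its reverse complement TTTCNNTTTC, searched on both strands, where overlapping matches run together. Ifit1 lies at chr19:34640689-34640888 (plus strand), Ifit3 at chr19:34583329-34583528 (plus), Ifit3b at chr19:34607757-34607956 (plus), Isg15 at chr4:156200819-156201018 (minus), Rsad2 at chr12:26456453-26456652 (minus) and Phf11b at chr14:59341331-59341530 (minus).
Ifit1: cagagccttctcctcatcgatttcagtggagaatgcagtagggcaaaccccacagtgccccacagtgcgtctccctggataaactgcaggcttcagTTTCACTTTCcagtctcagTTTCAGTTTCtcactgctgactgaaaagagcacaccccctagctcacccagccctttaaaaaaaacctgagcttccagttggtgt
Ifit3: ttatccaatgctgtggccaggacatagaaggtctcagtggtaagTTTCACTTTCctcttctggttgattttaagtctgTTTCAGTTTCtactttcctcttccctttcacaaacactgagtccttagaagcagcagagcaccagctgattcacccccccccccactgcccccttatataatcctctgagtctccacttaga
Ifit3b: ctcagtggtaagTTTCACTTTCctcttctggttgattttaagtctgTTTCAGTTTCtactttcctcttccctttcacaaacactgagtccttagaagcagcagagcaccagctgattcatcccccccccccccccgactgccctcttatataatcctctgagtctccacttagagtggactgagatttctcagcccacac
Isg15: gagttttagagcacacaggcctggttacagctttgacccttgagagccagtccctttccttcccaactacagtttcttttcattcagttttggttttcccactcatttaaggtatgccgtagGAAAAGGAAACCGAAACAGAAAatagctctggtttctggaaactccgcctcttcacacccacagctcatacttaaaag
Rsad2: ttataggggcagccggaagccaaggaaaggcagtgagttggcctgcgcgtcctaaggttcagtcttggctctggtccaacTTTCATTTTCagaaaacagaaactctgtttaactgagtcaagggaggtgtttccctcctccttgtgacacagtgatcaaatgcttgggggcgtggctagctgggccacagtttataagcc
Phf11b: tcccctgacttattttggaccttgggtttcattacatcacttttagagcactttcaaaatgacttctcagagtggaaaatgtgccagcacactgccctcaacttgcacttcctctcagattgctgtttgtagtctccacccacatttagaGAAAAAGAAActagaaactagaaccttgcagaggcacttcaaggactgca
Ifit1, Ifit3 and Ifit3b each held 2 matches, Isg15 held 3 that overlap, and Rsad2 and Phf11b held 1. In Ifit1 the matches began 104 and 85 bases before the start site. No match was present in these windows for Ifit2, Irf7 or Oasl2. The shares that follow were counted over RefSeq promoter entries longer than the windows shown, reaching further upstream and past the start site. Over all such entries 1131 of 32851 (3.44%) held the motif, and so did those of 236 of 5897 measured genes (4.00%). Among interferon-induced genes higher in the members, described below, 63 of 80 had a promoter entry and 27 of those (42.9%) held it.

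The 8 chosen genes took between 3.28 and 64.1 of every 10000 UMIs in the 55 members, with a median of 7.54. In the other 498 barcodes they took between 0 and 3.27, with a median of 0.396, and 204 of these barcodes had no UMI of any of the 8. The boundary fell within a continuous distribution: the last 3 members stood at 3.30, 3.29 and 3.28 per 10000, on 10, 3 and 2 UMIs, and the first 3 barcodes outside at 3.27, 3.15 and 3.14. These values chose the members and are given as a description.

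**Figure D1:**
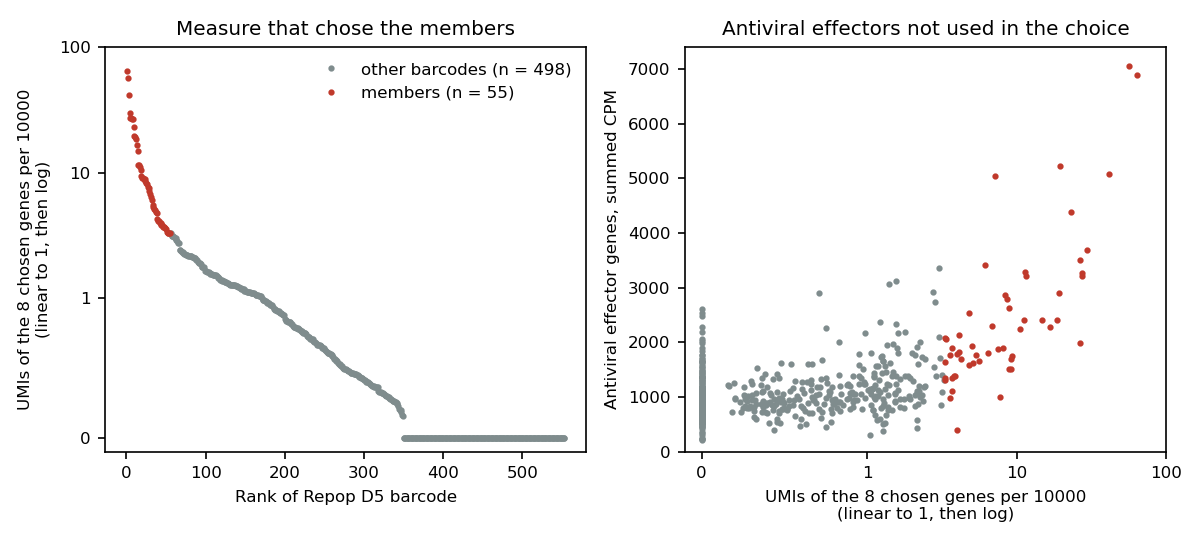
Left, UMIs of the 8 chosen genes per 10000 UMIs (linear to 1, then log scale) for the 553 retained Repop D5 barcodes ranked by that share; right, summed level of antiviral effector genes outside the choice (CPM, UMIs scaled to a common total) against the same share. The 55 members (red) pass into the other 498 barcodes (grey) with no gap, and the 2 barcodes with the highest share also have the 2 highest antiviral levels, 6888 and 7064.

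At least 5 of the 8 genes were detected in 29 of 55 members and in 3 of the 498 others, and only 1 or 2 of them in 6 members. This contrast follows in part from the choice by the same genes and is a description. Isg15, a ubiquitin-like modifier, led in 26 members and Irf7, a transcription factor that amplifies interferon production, in 12. The members held 1003 of the library's 1584 UMIs of these genes (63.3%), and 166 of the 1003 came from 1 member of 60636 UMIs. At the low end, 9 members had 5 or fewer such UMIs.

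Levels are given as CPM, the UMIs of a gene summed over the barcodes of a set and scaled to the same total in each set. Isg15 stood at 322 CPM in the members and 19.8 CPM in the others. Irf7 stood at 197 and 14.8 CPM. The Ifit genes, whose products bind viral RNA that lacks self marks, lie side by side on chromosome 19 between 34550694 and 34650009 (GRCm38, GENCODE M21) and reached 170 CPM for Ifit3 and 112 CPM for Ifit1 in the members, against 5.36 and 2.58 CPM. When each gene in turn was left out of the sum and members were chosen again, 46 to 55 of the 55 members stayed. The left-out gene was 8.08-fold (Oasl2) to 34.7-fold (Ifit1) higher in the newly chosen 55 than in the rest.

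Members had a median of 13989 UMIs, 3276 genes and 4.72% mitochondrial UMIs, against 16573 UMIs, 3708.5 genes and 4.82% in the others. In all, 957808 UMIs stood behind the members and 10080113 behind the others. A gene with no UMI could still be present at up to 3.13 CPM in the members and 0.298 CPM in the others, the level of 3 counts. The 2 libraries share 1 barcode sequence, which is no member. Scrublet called 12 of the 553 barcodes (2.17%) doublets, none of them a member, and none was removed.

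The series describes its cells as microglia, and most members carried microglia markers. Summed over 10 microglia markers, members stood at 9902 CPM and others at 10415 CPM, and none of the 10 differed by 1.5-fold. P2ry12, a purinergic receptor of resting microglia, ranged from 0 to 45.6 per 10000 UMIs in members (median 4.49) and from 0 to 28.9 in others (median 4.22). Some barcodes departed from this, and they were unevenly spread. Microglia markers summed to under 4000 CPM in 6 of 55 members and 20 of 498 others. Monocyte markers reached 4000 CPM in 3 members and 5 others, border macrophage markers in 2 and 3, endothelial markers in 1 and 1, and neutrophil markers in 1 and 13. T and NK cell markers summed to 1.04 CPM in members and 0.794 CPM in others. The part of these barcodes in each result was not tested beyond recomputing it without them, as given beside the results they touch. In that recomputation members were chosen again from the remaining barcodes.

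A gene was counted as higher or lower when it had 10 CPM in either set, differed by 1.5-fold and had an exact conditional binomial 95% interval of the ratio clear of 1. With 1 library this is a count by size, with no test across samples. Of 7598 genes measured, 358 were higher in the members (4.71%) and 235 lower (3.09%). Since the members were chosen for interferon-induced genes, that other interferon-induced genes are high in the same barcodes is a description of how the programme is carried. Over 5 lists of such genes (antiviral effectors, ISG15 conjugation, the IFITM family, interferon gamma-linked GTPases and other interferon-induced genes), which leave out the 8, 80 of 93 measured genes were higher (86.0%) and 1 was lower. The median log2 ratio over the 93, on the scale of CPM + 1, was 1.32, against -0.03 over all genes. A gene low in the others can enter the 93 only through the members, which favours a higher call. With no CPM minimum 86 of 112 were higher. Without the barcodes under 4000 CPM of microglia markers 73 of 91 were higher, and with every barcode thinned to 3000 UMIs 48 of 95. Members were chosen again after thinning, here and below unless the same members are said to be kept.

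**Figure D2:**
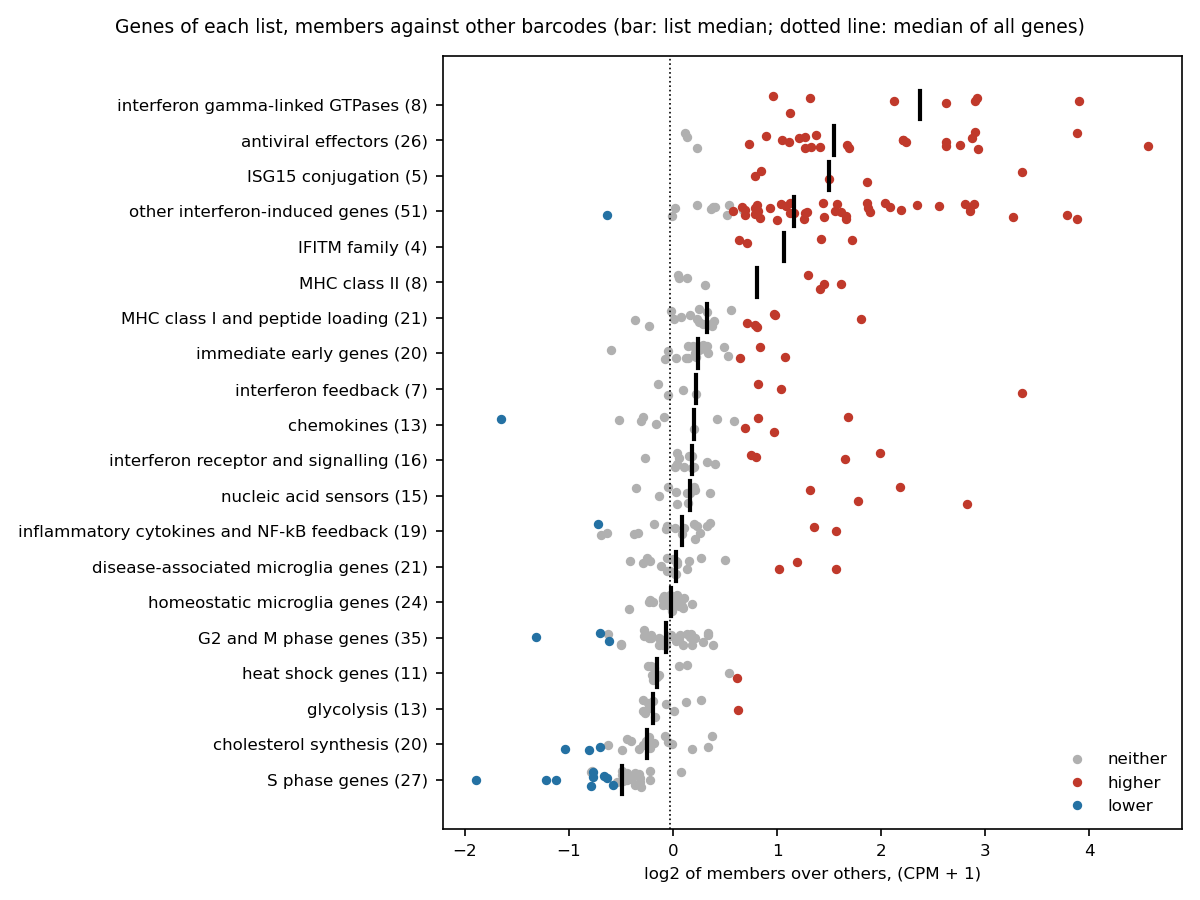
Log2 ratio of members over other barcodes, on the scale of CPM + 1, for each measured gene (points) of 20 gene lists, with the number measured in brackets, the list median (bar) and the median of all genes (dotted line). Genes higher in members are red and lower blue; the gamma-linked GTPases and antiviral effectors have the highest medians, 2.37 and 1.54, and the S phase genes the lowest, -0.49.

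The signalling chain was split. Of 16 measured receptor and signalling genes, 4 were higher (25%, against 4.71% of all genes) and 12 were neither higher nor lower. Among the 4 were Stat2, Irf9 and Irf1, which are transcription factors and are themselves induced by interferon. Stat2 ranged from 0 to 3.92 per 10000 UMIs in members and from 0 to 1.82 in others, with medians of 0 in both. The ranges overlapped, and a Stat2 UMI was found in 21 of 55 members against 68 of 498 others. Summed, Stat2 was at 34.5 and 7.94 CPM (4.34-fold, 2.80 to 6.59). Irf9 was at 54.3 and 30.9 CPM (1.76-fold, 1.29 to 2.37), and at 1.11-fold when barcodes were thinned to 3000 UMIs.

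The receptor itself and its kinases did not reach the 1.5-fold size. Ifnar1 was at 61.6 CPM in members and 48.8 CPM in others, with a ratio of 1.26 (0.947 to 1.66), and Ifnar2 at 138 and 123 CPM, with a ratio of 1.12 (0.926 to 1.34). Jak1 had a ratio of 1.03 (0.782 to 1.33). Tyk2, at 16.7 and 14.6 CPM, had a ratio of 1.15 (0.638 to 1.92). These intervals all include 1, and those of Ifnar1 and Tyk2 also include a 1.5-fold difference. Irf8, a lineage factor of microglia, was at 379 and 329 CPM (1.15-fold), and Ifngr2, a chain of the interferon gamma receptor, at 158 and 190 CPM.

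Of 7 measured feedback genes 3 were higher (42.9%, against 4.71% of all genes), Usp18, Socs3 and Adar. Usp18 removes ISG15 from proteins and blocks signalling at Ifnar2. It was found in 30 members and 59 others, ranged up to 4.75 per 10000 in members (median 0.355) and up to 2.32 in others (median 0), and, at chr6:121245906-121270917, was at 73.1 and 6.25 CPM, 11.7-fold higher (8.20 to 16.7). Socs3, which inhibits receptor-bound kinases, was at 49.1 and 23.3 CPM with 29.8% of its member UMIs in 1 barcode, and its ratio was 0.937 after thinning.

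Sensors of foreign nucleic acid and their adaptors were also split. Of 15 measured, which include endosomal receptors, 4 were higher (26.7%, against 4.71% of all genes). All 4 were cytosolic: Zbp1, which senses Z-form nucleic acid, and the RNA helicases Ifih1, Ddx58 and Dhx58. Zbp1 ranged from 0 to 9.40 per 10000 in members (median 0.343) and from 0 to 2.38 in others (median 0), and was at 85.6 and 11.2 CPM, 7.64-fold higher (5.68 to 10.2). Ifih1 was at 38.6 and 7.74 CPM (4.99-fold, 3.28 to 7.47). Tmem173, the adaptor of the DNA-sensing pathway known as STING, was at 119 CPM in members and 152 CPM in others, and Unc93b1, which carries endosomal Toll-like receptors, at 621 and 537 CPM. Neither passed 1.5-fold.

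Antiviral effectors were higher as a list. Of 26 measured, 23 were higher and none lower, and the median log2 ratio was 1.54. Rtp4, a transmembrane protein induced by interferon, ranged from 0 to 7.72 per 10000 in members (median 1.10) and from 0 to 5.46 in others (median 0), and was at 161 and 25.2 CPM, 6.38-fold higher (5.19 to 7.83). Bst2, which tethers budding virions to the cell surface, was abundant in both sets at 483 and 259 CPM (1.86-fold, 1.69 to 2.06). Oasl1, of the oligoadenylate synthetase family, was at 31.3 and 1.19 CPM (26.3-fold, 13.1 to 56.4), and Ifit1bl1 at 34.5 and 0.496 CPM, with 60.6% of its member UMIs in 1 barcode. Xaf1, a proapoptotic factor, was 3.33-fold higher (2.50 to 4.39). Shisa5, at 226 and 208 CPM, was among the 3 that were not higher.

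**Figure D3:**
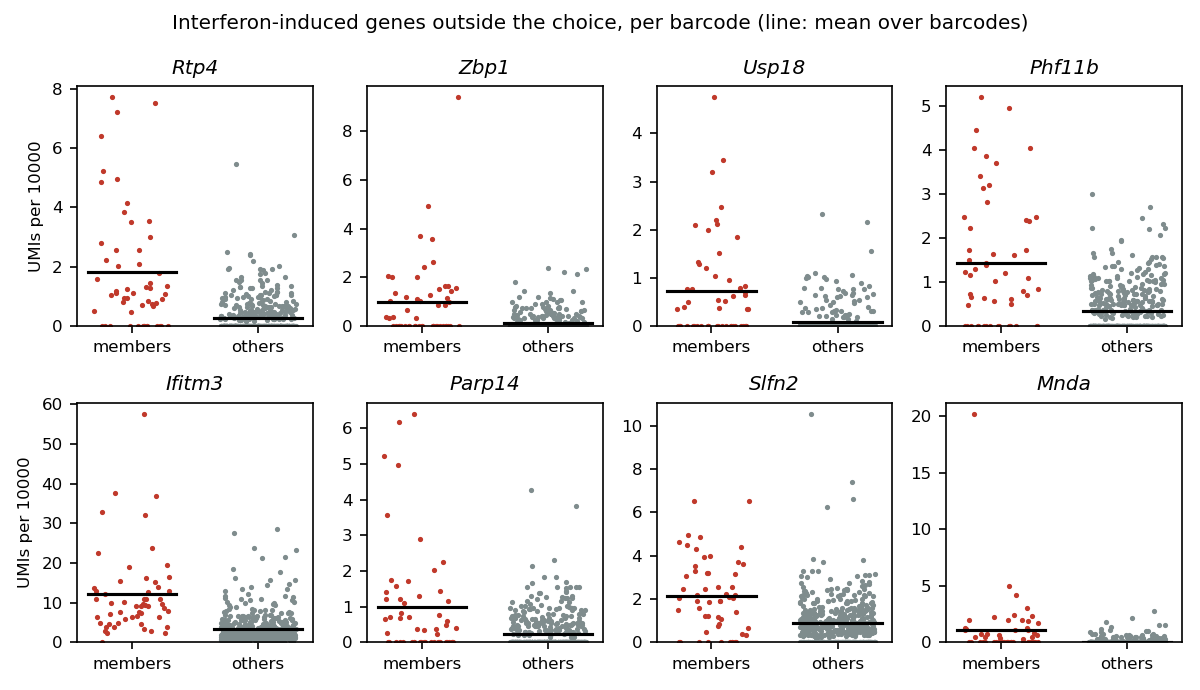
UMIs per 10000 of 8 interferon-induced genes outside the choice in each of the 55 members (red) and 498 other barcodes (grey), with the mean over barcodes as a line. Every gene overlaps between the sets; Parp14 reaches 6.41 in members and 4.27 in others, while the highest Mnda barcode is a member at 20.2.

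Summed per barcode, the antiviral effectors ranged from 400 to 7064 CPM in members (median 1991) and from 220 to 3357 CPM in others (median 979). Of the 55, 9 members lay above the highest of the others, 54 of 55 lay above the others' median, and 42 lay above their 90th percentile of 1632 CPM. Across the 55 members this level and the share of the 8 genes had a Spearman correlation of 0.714, and across the 498 others 0.292. Both measures come from the same cells of 1 library and share each barcode's depth, so the correlations are descriptions.

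All 5 genes that attach Isg15 to proteins or remove it were higher, and Usp18 is 1 of them. Uba7 is the activating enzyme, at 44.9 and 25.5 CPM (1.76-fold, 1.24 to 2.44). Ube2l6 is the conjugating enzyme, at 52.2 and 17.9 CPM (2.92-fold, 2.09 to 4.02). The ligases Herc6 and Trim25 were 3.89-fold (2.65 to 5.61) and 1.85-fold (1.17 to 2.82) higher. After thinning to 3000 UMIs, with members chosen again, 1 of the 5 was counted as higher.

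The IFITM proteins block fusion of viruses with cell membranes, and their genes lie together on chromosome 7. Ifitm3 ranged from 0 to 57.6 per 10000 in members (median 9.54) and from 0 to 28.6 in others (median 2.34). It was found in 54 of 55 members and 453 of 498 others, and at equal depth of 3000 UMIs, with the same members kept, in 87.3% and 54.8%. Its level was 1121 and 341 CPM (3.29-fold, 3.07 to 3.53). Ifitm2 was at 144 and 92.5 CPM (1.56-fold), with a ratio of 1.11 without the 10% of barcodes richest in markers of other cell types. Ifitm1 and Ifitm6 were also counted as higher, but 70.0% and 34.4% of their member UMIs came from 1 barcode each, and Ifitm6 had a ratio of 0.705 with equal weight per barcode and Ifitm1 one of 0.586 with 5% of barcodes as members.

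The GTPases induced chiefly by interferon gamma, which attack the vacuoles of intracellular parasites, had the highest list median, 2.37. All 8 measured were higher, from low levels, and 4 of 8 after thinning. Some, such as Iigp1 and Gbp2, passed the 10 CPM minimum only through the members, which favours a higher call. With no CPM minimum 10 of 12 were higher and the list median was 1.87. Irgm1 was at 66.8 and 14.6 CPM (4.58-fold, 3.36 to 6.19), Igtp at 44.9 and 17.5 CPM (2.57-fold), and Gbp2 at 39.7 and 4.37 CPM (9.09-fold, 5.73 to 14.4). Iigp1 was at 19.8 and 0.397 CPM, from 19 UMIs in 10 members and 4 UMIs in 4 others. Irgm2 had the lowest ratio of the list, 2.08 (1.11 to 3.65). Irgm2 and Igtp overlap on chromosome 11, so their counts may share reads.

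Among other interferon-induced genes 41 of 51 were higher and 1 was lower. The gene with the highest ratio of all that qualified for ranking (50 CPM, no more than 50% of member UMIs in 1 barcode) was Mnda (chr1:173896345-173913046, minus strand), a nuclear protein of the PYHIN family, at 123 and 8.04 CPM (15.3-fold, 11.5 to 20.6). Its relatives on chromosome 1 followed: Pyhin1 (7.87-fold), AI607873 (5.26-fold), Mndal (4.29-fold) and Ifi204 (3.2-fold). Mnda was found in 28 members and 59 others and ranged up to 20.2 per 10000 in members and 2.81 in others. Of its member UMIs 28.8% lay in 1 barcode, ranked 2, which was at 17985 CPM of monocyte markers. Without barcodes under 4000 CPM of microglia markers the ratio of Mnda was 10.7. There Pyhin1 was at 6.11, AI607873 at 4.93, Mndal at 3.19 and Ifi204 at 3.01. Sequence is shared within this family: 57.9% of 100-base windows in the last 500 bases of Mnda transcripts occur in another gene, most often Ifi205, and 34.3% of those of Pyhin1. Mndal also overlaps Mnda on the same strand, so counts of single members are uncertain.

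Phf11b and Phf11d, adjacent genes on chromosome 14, were at 140 and 32.2 CPM (4.34-fold, 3.52 to 5.32) and at 64.7 and 13.4 CPM (4.83-fold, 3.52 to 6.58). Phf11b is the gene outside the choice whose promoter is shown above, and it was detected in 39 of 55 members against 205 of 498 others. Of its 100-base windows 18.2%, and of those of Phf11d 14.8%, are shared with another gene, so reads may be divided between neighbours. Parp14, an ADP-ribosyltransferase, and Dtx3l, a ubiquitin ligase, were 3.79-fold and 3.29-fold higher. Ifi27l2a was the most abundant gene of the list, between 7.14 and 91.9 per 10000 in members (median 18.0) and between 1.05 and 99.6 in others (median 12), and its summed level was 1.73-fold higher (1.65 to 1.81). Ifi27, its neighbour on chromosome 12, was the gene that was lower, at 40.7 and 63.8 CPM. Ifi30, a lysosomal thiol reductase, was level at 1035 and 1040 CPM.

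Of the 20 highest genes 18 belonged to an interferon list. Ly6c2 and Plac8, which also mark monocytes, were 10.3-fold and 7.38-fold higher, but 45.3% and 43.1% of their member UMIs came from 1 barcode. The 10% of barcodes richest in markers of other cell types included 12 of the 55 members. With these barcodes left out and members chosen again, the ratios of Ly6c2 and Plac8 were 1.89 (0.818 to 3.87) and 1.16 (0.630 to 1.97). Ms4a4c, on the same marker list, kept a ratio of 2.59 there. A further 5 genes were left out of the ranking because 1 barcode held over 50% of their member UMIs, among them Ly6a, Chil3 and the endothelial tight junction gene Cldn5, with 96.4%.

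Genes of antigen presentation were less uniform. In the class I list 6 of 21 were higher (28.6%, against 4.71% of all genes) and 0 lower, with a median of 0.33. Nlrc5, the activator of class I genes, was at 11.5 and 2.58 CPM (4.45-fold, 1.99 to 9.33) and H2-T23 at 88.7 and 44.4 CPM (2.00-fold, 1.56 to 2.52). B2m, the shared light chain, was at 3487 and 2936 CPM (1.19-fold), and the chaperone Calr at 1215 and 1423 CPM.

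In the class II list 4 of 8 were higher (50%, against 4.71% of all genes). Cd74, the invariant chain, ranged from 0 to 174 per 10000 in members (median 1.42) and from 0 to 454 in others (median 1.05), with a summed ratio of 3.07 (2.83 to 3.33) and 25.7% of the member UMIs in 1 barcode. H2-Ab1 behaved alike at 318 and 116 CPM, whereas H2-DMa, which loads peptides, was at 475 and 432 CPM. The list median of 0.80 was 0.25 without the 5% deepest barcodes (1 of 8 higher), 0.42 without the member with the most UMIs of the 8 genes, and 0.09 after thinning. It was 1.10 with members chosen without Isg15 and 1.36 at a 50 CPM minimum. Without the 10% of barcodes richest in markers of other cell types it was 1.22, and Cd74 had a ratio of 4.22 and H2-Ab1 of 4.20. Dendritic cell markers were not among the markers used for that filter. In that setting they summed to 80.7 CPM in members and 9.80 CPM in others. Class II genes summed to 10000 CPM or more in 2 members and 3 others, and the part of these barcodes was not tested.

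Of 13 chemokines 4 were higher (30.8%, against 4.71% of all genes) and 1 lower (7.69%, against 3.09% of all genes). Ccl5, a lymphocyte attractant, was at 32.4 and 9.42 CPM, with 45.2% of its member UMIs in 1 barcode. Ccl6 was at 133 and 67.0 CPM (1.98-fold, 1.63 to 2.40), Ccl9 was 1.62-fold higher, and Ccl7 had 79.6% of its UMIs in 1 barcode. Ccl12, the most abundant, was at 1394 and 929 CPM with a ratio of 1.5, just under the size rule. Cxcl10, a classical interferon-induced chemokine, was found in 25 of 55 members and 182 of 498 others and was at 111 and 82.0 CPM (1.35-fold, 1.09 to 1.65). Its ratio moved with the setting, to 2.60 with 5% of barcodes as members, 1.05 with 20%, 1.99 after thinning and 1.70 with equal weight per barcode. Cxcl14 was lower, with 4 UMIs in the members and 154 in the others, at a ratio of 0.273 that was 0.699 with 20% of barcodes as members. Without barcodes under 4000 CPM of microglia markers 2 chemokines were higher and 3 lower.

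Inflammatory cytokines and feedback genes of NF-kB were not raised as a list. Of 19 measured, Csf1 and Bcl3 were higher (10.5%, against 4.71% of all genes). Tnf was lower (5.26%, against 3.09% of all genes), at 44.9 and 74.4 CPM (ratio 0.603, 0.433 to 0.821). The list median was 0.08. Ccl2 and Ccl3, inducible chemokines often high after enzymatic dissociation, were at 291 and 355 CPM and at 78.3 and 112 CPM. Immediate early genes, which respond to dissociation, had 3 of 20 higher (15%, against 4.71% of all genes) and a median of 0.24.

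Interferon transcripts themselves were nearly undetected. Of 21 listed interferon genes 19 had no UMI in the Repop D5 barcodes. Ifnb1 had 3 UMIs in 1 member, the barcode ranked 27, which also held 14 UMIs of Ccl5, and 1 UMI in each of 2 others. Ifnz had 3 UMIs in the others. The CD library had 0 UMIs of either gene.

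The homeostatic programme of microglia was level between the sets. Of 24 measured genes 0 were higher and 0 lower, with a median of -0.02. Csf1r, the target of PLX5622, was at 1303 and 1390 CPM (ratio 0.938, 0.884 to 0.994), ranging from 2.00 to 37.2 per 10000 in members and 0 to 37.6 in others. Cst3, a protease inhibitor, was at 7995 and 7059 CPM, and Fcrls, a scavenger-like receptor, at 375 and 502 CPM. Of 21 genes of disease-associated microglia 3 were higher (14.3%, against 4.71% of all genes), Csf1, Apoe and Lgals3. Apoe, a lipid carrier, had medians of 4.61 and 4.07 per 10000 but a highest member at 575, and its summed level was 2250 and 984 CPM. Lgals3 had a ratio of 2.04, and 1.23 without barcodes under 4000 CPM of microglia markers. Fth1, the ferritin heavy chain, was at 6742 CPM in both.

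Part of the genes of DNA replication were lower. Of 27 measured S phase genes 0 were higher and 9 lower (33.3%, against 3.09% of all genes), with a median of -0.49. Their summed level was 1034 CPM in members and 1456 CPM in others. In 5 successive blocks of 11 members, from the highest share to the lowest, the sums were 993, 1014, 1581, 487 and 1031 CPM. The third block was thus above the others, and the sums did not follow the share. Pcna, the polymerase clamp, had a median of 0 per 10000 in members (highest 3.51) and of 1.07 in others (highest 9.63), and was at 96.1 and 164 CPM (ratio 0.587, 0.471 to 0.725). Clspn, of the replication checkpoint, was at 4.18 and 18.1 CPM on 4 member UMIs, and its ratio of 0.230 was 0.823 after thinning. Dut, which clears dUTP, was at 85.6 and 81.0 CPM. Without the 10% of barcodes richest in markers of other cell types 5 of 28 were lower and the median was -0.19, and after thinning it was -0.15.

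Genes of G2 and mitosis were near level as a list, with a median of -0.07 against -0.03 over all genes. Of 35 measured, 3 were lower, Ccnb2, Cdc20 and Ndc80 (8.57%, against 3.09% of all genes). Mki67, the proliferation antigen, was found in 27 of 55 members and 321 of 498 others and was at 112 and 123 CPM (ratio 0.911, 0.741 to 1.11). Hmgb2 was at 581 and 622 CPM. In the cholesterol synthesis list 3 of 20 were lower (15%, against 3.09% of all genes). Among them were Sqle at 36.5 and 64.4 CPM (ratio 0.568, 0.392 to 0.798) and Fdft1 at 12.5 and 26.8 CPM.

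Wfdc21, S100a8, S100a9, Ngp, Camp and Retnlg are neutrophil genes and made up 6 of the 10 lowest genes, with ratios from 0.194 (Wfdc21) to 0.542 (Retnlg). S100a8, a calcium-binding protein that neutrophils carry in bulk, reached 28.4 per 10000 in the highest member and 1948 in the highest other, with medians of 3.07 and 2.73. Neutrophil-rich barcodes were 1 of 55 members and 13 of 498 others, and without the 10% of barcodes richest in markers of other cell types the S100a8 ratio was 1.03 and that of Retnlg 1.68.

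The remaining 4 stayed lower without those barcodes, but after thinning the ratio was 0.937 for Pxdc1, 0.941 for Rab7b and 0.728 for Siva1, short of the 1.5-fold size. Phgdh, the first enzyme of serine synthesis, had medians of 0.594 per 10000 in members and 1.44 in others, highest values of 3.71 and 7.86, and levels of 86.7 and 175 CPM (ratio 0.496, 0.393 to 0.619). Its ratio lay between 0.455 and 0.568 under every setting in which it was recomputed. Pxdc1 was at 37.6 and 83.4 CPM (0.450), Rab7b, an endosomal GTPase, at 27.1 and 60.3 CPM (0.450) and Siva1, an apoptosis regulator, at 43.8 and 80.2 CPM (0.547). Without those barcodes their ratios were 0.510, 0.532 and 0.632.

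Interferon-induced genes outside the choice mostly decreased along the ranking, though not at every step. In 5 successive blocks of 11 members, from the highest share to the lowest, antiviral effectors outside the choice summed to 4051, 2117, 2330, 1776 and 1536 CPM. They stood at 1468 CPM in the 55 barcodes ranked next, 1204 CPM in the following 56 and 1128 CPM in the 55 after those, against 956 CPM in the 204 barcodes with no UMI of the 8 genes. The gamma-linked GTPases stood at 651, 398, 192, 217 and 83.5 CPM in the 5 blocks. The 55 barcodes ranked next held 118 CPM of them, above the lowest block of members, and barcodes with none of the 8 held 65.9 CPM. The IFITM family stood at 2091 CPM in the highest block and 1052 CPM in the lowest, and at 578 CPM in the 55 barcodes ranked next. The highest block also held the most monocyte marker UMIs, 2289 CPM, against 250 CPM in barcodes with none of the 8. The barcode ranked 2, with 16847 of the block's 152046 UMIs, was at 17985 CPM of these markers and 1899 CPM of microglia markers. For monocyte markers the next highest of the block was at 1880 CPM. The sums of the block were not recomputed without that barcode.

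**Figure D4:**
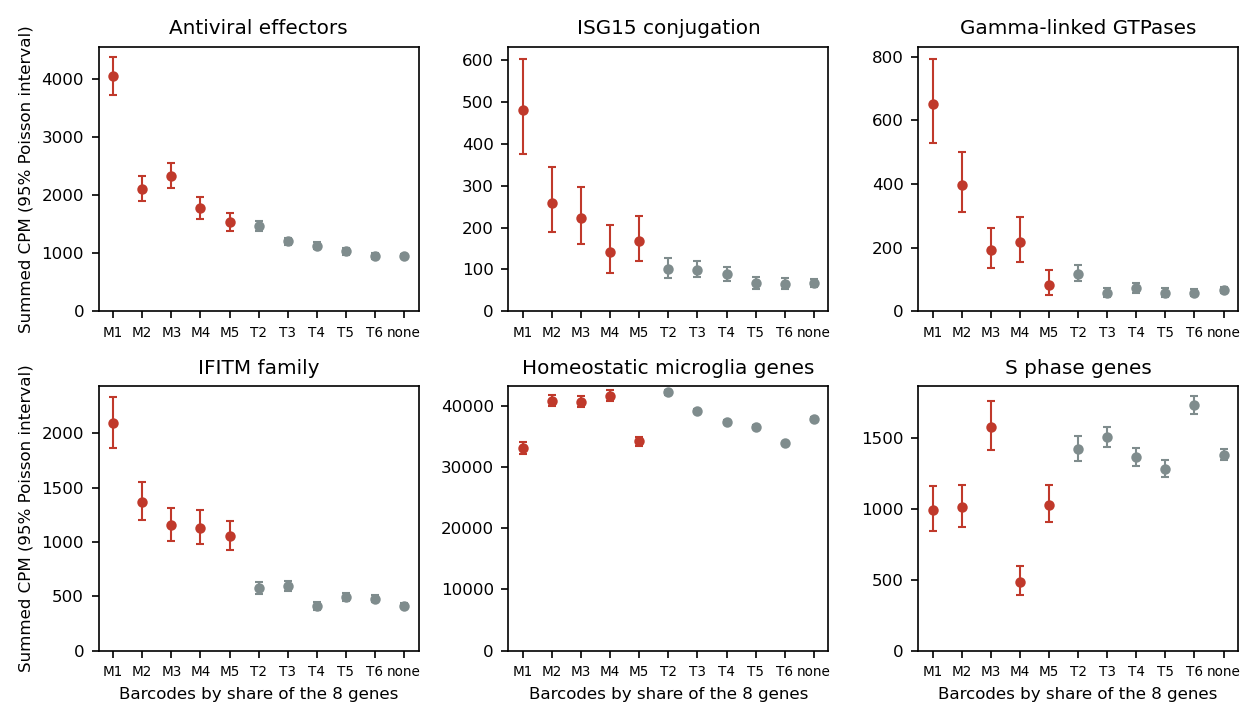
Summed CPM of 6 gene lists, with 95% Poisson intervals, in 5 blocks of 11 members from the highest share (M1) to the lowest (M5), in the next 5 blocks of 55 or 56 barcodes (T2 to T6) and in the 204 barcodes with no UMI of the 8 genes (none). Antiviral effectors go from 4051 in M1 to 956 in none, while homeostatic genes lie between 33076 and 42186 throughout. S phase genes are at 1581 in M3 and have their lowest value, 487, in M4.

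The same rule was also applied to the CD library, which had no depletion. It takes 10% of the barcodes of any library, here 60 of 609, so this number does not show how many were high. In the 60, 17 of 22 antiviral effectors were higher than in the other 549 and 0 lower, with a median of 1.02. Over all genes 400 of 8429 were higher (4.75%) and 258 lower (3.06%). Usp18 was at 63.7 and 4.89 CPM there (13-fold, 7.63 to 22.4) and Mnda at 80.5 and 8.87 CPM. Of these 60 barcodes 10 were rich in neutrophil markers, 8 in border macrophage markers and 5 in monocyte markers, against 66, 30 and 11 of the other 549 CD barcodes and 1, 2 and 3 of the 55 in Repop D5.

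The libraries differ in depth, with medians of 5982 UMIs in CD and 16226 in Repop D5. At 3000 UMIs per barcode, which 599 CD and all 553 Repop D5 barcodes reach, 2 or more UMIs of the 8 genes were present in 45 Repop D5 barcodes (8.14%, exact 95% interval 6.00% to 10.7%) and 26 CD barcodes (4.34%, 2.85% to 6.30%), intervals that just overlap. At 5 or more the shares were 2.35% (1.26% to 3.99%) and 1.17% (0.471% to 2.39%). Before thinning, 36 CD barcodes (5.91%) reached the share of the lowest Repop D5 member. With 1 library per diet, a difference between libraries and one between diets cannot be told apart, and since no barcodes of a type known to lack these genes were at hand, the level given by free RNA was not measured.

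**Figure D5:**
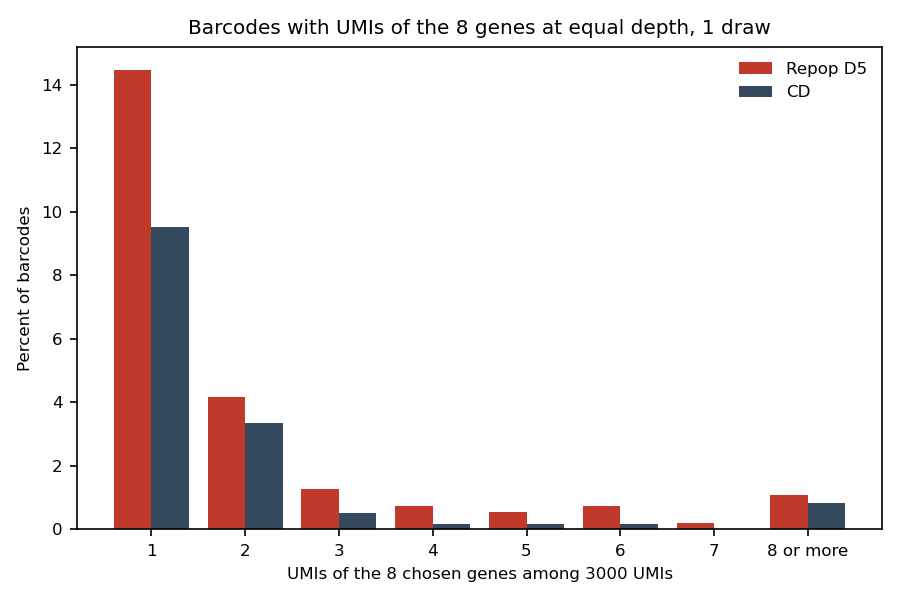
Percent of barcodes with 1 to 7, or 8 or more, UMIs of the 8 chosen genes after thinning each barcode to 3000 UMIs, in 1 draw, for Repop D5 (553 barcodes) and CD (599). Repop D5 is above CD in every class, from 14.5% against 9.52% at 1 UMI to 1.08% against 0.835% at 8 or more. The counts are 80 and 57 barcodes at 1 UMI but 6 and 5 at 8 or more. Classes from 3 UMIs up hold 7 or fewer barcodes per library.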

How the data were processed

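Single-cell RNA was measured in 2 libraries, and results concern the Repop D5 library. Cell Ranger 2.1.0 and the build mm10 are named in the submitters' processing notes. The gene annotation and the calling of cells are not given in the sources used here. The deposited matrices hold raw UMI counts of 27998 genes, and the pooled matrix of counts that the authors also made served as an alternative. The 8 genes, the rule and the gene lists were chosen with earlier results of these data known.

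UMIs were summed over members and over the other barcodes and scaled to CPM. Ratios have exact conditional binomial 95% intervals for Poisson counts, and list medians use log2(CPM + 1). Shares of barcodes have exact Clopper-Pearson intervals, and thinned shares are medians of 20 draws at 3000 UMIs. UMIs of 1 cell are molecules, but cells of 1 library are no replicates, so no p-value is given.

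Genes named are the 20 highest and 10 lowest ratios at 50 CPM with an interval clear of 1. Predicted, ribosomal protein, mitochondrial, haemoglobin and sex-linked genes were left out, as were, among the highest, genes with over 50% of member UMIs in 1 barcode. In each list the 2 highest, 2 lowest and 2 most abundant members at 10 CPM could be named, and a few genes were always named (among them the 8, Stat2, Irf9, Usp18, Ifi27l2a, Ifitm3, Bst2, Cxcl10, Ccl12, Mki67, P2ry12, Csf1r, Ccr2 and Ifnb1). Irf1, Ifnar1, Ifnar2, Jak1, Tyk2, Adar, Ddx58, Dhx58, Ccl7, Ccl9, Lgals3 and Cdc20, and Slfn2 and Parp14 in a plot, were named after their values were seen. Some genes that the rule names are not reported here. The scripts were tested on simulated data. Python 3.11.15, numpy 2.4.6, scipy 1.17.1, scanpy 1.11.5 for Scrublet and edgeR 4.0.16 for trimmed-mean scaling were used. Gene positions are from GENCODE M21, and promoters from RefSeq for GRCm38.p6.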

Additional observations from a re-analysis of the deposited data

How the results depend on the processing

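There were 19 alternative settings, 2 of them chosen after seeing the data. Of these 2, 1 left out barcodes under 4000 CPM of microglia markers, and 1 the member with the most UMIs of the 8 genes. Across the 19 settings 43 to 86 interferon-induced genes were higher in members. The counts were 43 of 53 at a 50 CPM minimum, 86 of 112 with no CPM minimum and 48 of 95 after thinning. The counts of 358 higher and 235 lower genes became 113 and 42 at a 50 CPM minimum, where fewer genes are measured, and 118 were lower after thinning. The antiviral effector median of 1.54 was 1.13 with 20% of barcodes as members and 1.08 with a pseudocount of 10 CPM. For other interferon-induced genes, 1.17 became 1.69 with 5% of barcodes and 0.80 with 20%. The homeostatic median was 0.046 with 20% of barcodes, 0.066 with members chosen without Isg15 and 0.047 without the 5% deepest barcodes. The S phase median was -0.31 with 20% of barcodes, -0.15 after thinning, -0.30 with members chosen by mean log level and -0.19 without the 10% of barcodes richest in markers of other cell types. The immediate early median was -0.030 with 5% of barcodes. Members were chosen again in each setting that changed the barcodes, their counts or the rule. The exception was leaving out the member with the most UMIs of the 8 genes. After thinning only 45 of 553 barcodes held 2 or more UMIs of the 8 genes. Some of the 55 members were thus taken from ties at 1 UMI, so values after thinning mix depth with a changed choice of members. The causes were not tested.

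Some ratios changed direction. Without the 10% of barcodes richest in other markers, S100a8 was at 1.03, S100a9 at 1.09, Camp at 1.31, Retnlg at 1.68, Ifitm6 at 0.931, Ccl7 at 0.318, Ccr2 at 0.886 and Chil3 at 0.397. Without barcodes low in microglia markers, Camp was at 1.00, Ccl7 at 0.337 and Chil3 at 0.848. After thinning, Socs3 was at 0.937, Ifitm1 and Bcl3 at 0, Ifitm6 at 0.787, Ccl9 at 0.965, Cdt1 at 1.09 and Cd209a at 0.412. With 5% of barcodes, Socs3 was at 1.00, Ifitm1 at 0.586 and Cldn5 at 0.207. Cldn5 was at 0.290 with members chosen without Isg15, and Ltf at 0.461 with 1000 genes and under 5% mitochondrial UMIs. Weighting barcodes equally gave 0.705 for Ifitm6 and 0.702 for Cd209a. Cd209a was at 0.330 without the 5% deepest barcodes and 0.351 without the member with the most UMIs of the 8 genes. Thinned members hold few UMIs, so depth limits single genes near 10 CPM. No paired analysis was possible because each group is 1 library.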

Other observations

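Some markers of other cell types were high in single members. Cd209a, a lectin of dendritic cells, had 28 UMIs in the members, 89.3% of them in 1 barcode, at 29.2 CPM against 9.52 CPM in the others. Ltf, a granule protein of neutrophils, was at 78.3 and 29.0 CPM with 78.7% in 1 barcode, although 6 of 8 measured neutrophil markers were lower in the members. Ccr2, a chemokine receptor of monocytes, was at 60.6 and 23.1 CPM, from 11 members and 86 others. The highest endothelial marker level of a member was 36185 CPM, with the median at 0.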
